A study of Mus musculus with 2 samples.

Results

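The 32 macrophage and myeloid genes described here were fixed by name and looked up, through GENCODE mouse symbols on GRCm38, among the 43346 gene rows of total RNA-seq tables from mouse embryonic facial prominence. Each of the 32 was found once in both tables. The tissue is the set of outgrowths of neural crest mesenchyme, ectoderm and vessels that build the face. It came from pooled male and female embryos of the B6NCrl strain at 13.5 days of development, labelled healthy, with no treatment, transgene or deletion named. The study holds 2 libraries, biological replicates 1 and 2, made from separate tissue samples under a single donor record, each from 10 ng of RNA with spike-in RNA added. They form 1 group, so no contrast between conditions exists: levels were compared between genes, and the libraries with each other. Whether the tissue samples came from separate litters is not stated, so the spread between them may be partly technical. In bulk tissue, fewer cells of a type and less RNA per cell cannot be told apart.

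Macrophages of the embryo arise first from yolk sac progenitors and later from fetal liver monocytes, and they settle in nearly every organ before birth. Their identity depends on the transcription factor PU.1, encoded by Spi1, and on signalling through the receptor Csf1r, which binds colony stimulating factor 1 and interleukin 34. In developing connective tissue they clear dying cells, and they carry C1q, scavenger receptors and lysosomal enzymes for that work. Granulocyte precursors and megakaryocytes are other myeloid cells, and a few of the 32 genes, such as Mpo, Ngp and Pf4, are best known from them.

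The libraries held 28542415 and 22719314 expected counts on gene rows in replicates 1 and 2. The 32 genes took 9921 and 8449 of these, or 0.0348% and 0.0372%. All 12 of 12 facial patterning and mesenchyme genes checked, Msx1 and Prrx1 among them, were present at 1 TPM or more in both libraries, where TPM is an abundance scaled by transcript length and by library. The libraries differed in genes of another tissue: hepatocyte genes such as Afp, Apoa1 and Trf, of which 2 of 10 reached 1 TPM in replicate 1 and 10 of 10 in replicate 2, summed to 15.6 and 389 TPM. Their summed counts were 22.1 times as high in replicate 2 after scaling, with an exact 95% interval from 20.3 to 24.1. Genes of erythroid cells, of which 6 of 9 reached 1 TPM in both libraries, were 2.04 times as high there (interval 1.92 to 2.17). The intervals given here and below cover counting error only.

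Of the 32 genes, 26 reached 1 TPM in both libraries, against 60.9% of the 21474 protein-coding genes. The 6 that did not were Il34, Cd163, Timd4, Lyz1, Cybb and Ngp. The Cybb value of 0.61 TPM in replicate 1 lay below its deposited credibility interval, from 0.65 to 1.65. By the posterior mean TPM, 28 of the 32 reached 1 TPM in both libraries. These included Il34, at 1.03 and 2.37, and Cybb, at 1.11 and 2.40 in replicates 1 and 2. The median of the genes' mean TPM was 7.19, at 6.87 in replicate 1 and 7.53 in replicate 2. That lay above the 4.68 of all protein-coding genes and below the 18.9 of protein-coding genes detected in both libraries. In all, 11 of the 32 reached 10 TPM in each library, in the order Pf4, Fcer1g, Lyz2, Tyrobp, C1qb, Stab1, Laptm5, Lgals3, C1qa, C1qc and F13a1 by mean. The credibility intervals deposited for Fcer1g, Lyz2, Tyrobp and C1qb overlapped one another in each library, and the place of Stab1 rests on short transcripts described below.

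**Figure D1:**
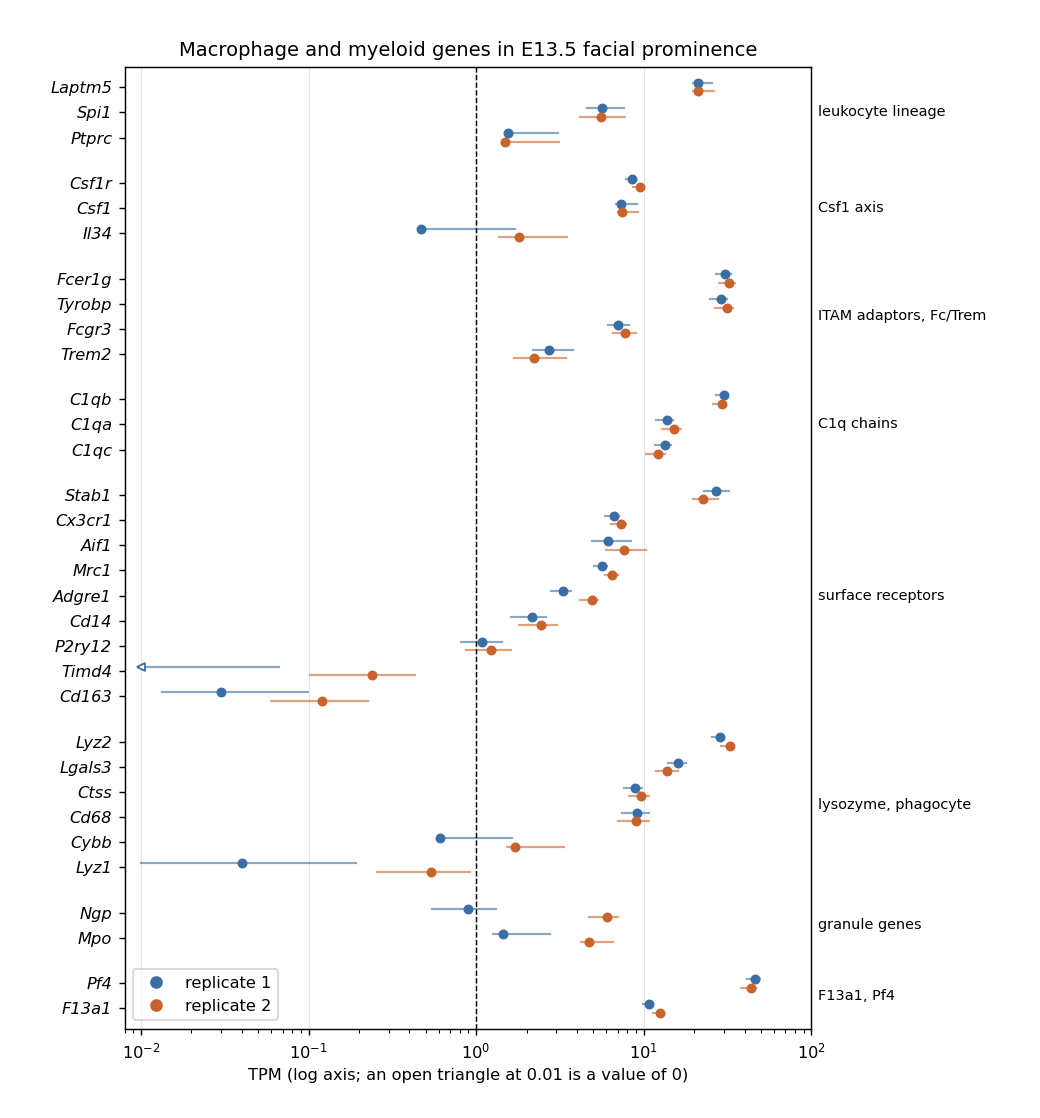
TPM of each of the 32 genes (log axis) in replicate 1 (blue) and replicate 2 (orange), grouped by role, with the deposited credibility interval as a bar and 1 TPM as a dashed line. Pf4 stands highest at 46.2 and 43.7 TPM. Of the 26 detected genes, Mpo has its points farthest apart, at 1.45 and 4.74 TPM. Among the genes not detected, the points of Ngp (0.89 and 6.02 TPM) and Il34 (0.47 and 1.80 TPM) are wider apart. So are those of Lyz1 and Cd163, and Timd4 has 0 TPM in replicate 1.

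Among the genes that mark the leukocyte lineage, Spi1 was measured at 5.65 TPM in replicate 1 and 5.54 TPM in replicate 2. Laptm5, a lysosomal membrane protein of blood cells, stood at 21.1 and 21.0 TPM. Ptprc, the leukocyte surface phosphatase CD45, stood at 1.56 and 1.49 TPM from 110 and 104 counts, the lowest of these lineage genes in both libraries. Spi1 exceeded Ptprc by 1.81 ± 0.02 on the log2 scale of TPM + 0.1 (SD, n = 2). The deposited intervals of Spi1 and Ptprc did not overlap in either library. The Ptprc value of 1.49 TPM in replicate 2 lay below its own interval, from 1.60 to 3.11. By the posterior mean TPM also deposited, Ptprc stood at 2.24 and 2.31, and the gap to Spi1 fell to 1.36. The SD of 0.02 does not cover this difference between estimates. Ptprc has 13 annotated transcripts, and those annotated as protein-coding carried 69.2% and 81.9% of its TPM.

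PU.1 binds purine-rich sites around a GGAA core. The letters GAGGAA, on either strand, were searched in RefSeq promoters on GRCm38.p6, running from 250 bases before to 50 bases after each gene's start. Promoters were matched for 25 of the 32 genes; Il34, Tyrobp, Adgre1, Cd14, Spi1, Csf1r and C1qa are named only. The letters occurred in 15 of the 25, or 60.0%, and in 31.3% of all 27025 genes in the same table. The 25 are all protein-coding, and the 27025 outnumber the 21474 protein-coding genes, so the shares come from unlike sets. The gap between the shares was not tested. The 23 matches lay in Ptprc, Fcgr3, Mrc1, Ctss, Laptm5, C1qb, C1qc, Pf4, Cd68, Mpo, F13a1, Stab1, Aif1, Trem2 and Cybb. Genes with and without a match were found at both high and low levels: Lyz2 and Fcer1g held none in this window, and Cybb held one. A match is a run of letters and was not measured as a binding site.

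The 100 bases before the start are shown for 4 genes of different roles that hold the letters there and share no base of this stretch with a GENCODE exon, with the match in capitals, as GAGGAA on the gene's strand or TTCCTC on the other. They lie at chr5:90772335-90772434 (Pf4, plus strand), chr4:136886201-136886300 (C1qb, minus strand), chr14:31168642-31168741 (Stab1, minus strand) and chr17:48346301-48346400 (Trem2, plus strand).
Pf4: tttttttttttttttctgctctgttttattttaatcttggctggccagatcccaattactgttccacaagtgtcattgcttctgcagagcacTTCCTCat
C1qb: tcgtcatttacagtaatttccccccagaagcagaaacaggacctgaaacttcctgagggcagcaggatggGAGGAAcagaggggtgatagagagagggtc
Stab1: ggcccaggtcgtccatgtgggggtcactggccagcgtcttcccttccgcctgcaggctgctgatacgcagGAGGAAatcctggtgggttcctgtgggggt
Trem2: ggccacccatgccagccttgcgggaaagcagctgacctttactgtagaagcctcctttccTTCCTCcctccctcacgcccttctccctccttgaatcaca

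The match began 8 bases before the start in Pf4, 30 in C1qb and in Stab1, and 40 in Trem2. These genes ranged from 44.9 TPM for Pf4 to 2.48 TPM for Trem2 in mean level.

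Csf1r, the receptor tyrosine kinase needed for macrophage survival, was read at 8.56 TPM in replicate 1 and 9.54 TPM in replicate 2, from 822 and 700 counts. Its ligand Csf1, made by mesenchymal and endothelial cells among others, stood at 7.28 and 7.44 TPM. The other ligand, Il34, known mainly from neurons and keratinocytes, stood at 0.47 and 1.80 TPM from only 14 and 23 counts. Csf1 and its receptor were at similar levels, and their intervals overlapped. Csf1 lay above Il34 in both libraries, by 2.84 ± 1.21 (log2 of TPM + 0.1, SD, n = 2), with intervals that did not overlap, although the size of the gap varied between the libraries. The Il34 rows also differed in kind: its protein-coding transcripts gave 0.35 and 0.38 TPM, and the noncoding Il34-205 of 675 nt gave 0.12 TPM in replicate 1 and 1.42 TPM in replicate 2. For Csf1r, 13.5% of the 100-nt windows of its transcripts also occur in Hmgxb3, whose exons overlap it on the opposite strand over 873 bases. No source used here says whether reads were counted by strand.

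Csf1 is made in several transcripts that differ in their 3′ ends and in whether the factor is secreted or held at the membrane. Csf1-201, the longest, led in both libraries at 3.25 and 4.43 TPM. Csf1-202 followed at 3.07 and 3.01 TPM.

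The adaptors that couple activating receptors to kinases through an ITAM, a tyrosine-based activation motif, were among the most abundant of the 32. Tyrobp, the adaptor DAP12, stood at 29.0 and 31.3 TPM in replicates 1 and 2. Fcer1g, the common Fc receptor gamma chain, stood at 30.6 and 32.2 TPM. The 2 adaptors differed by 0.06 on the log2 scale, and their intervals overlapped. Receptors that signal through them were lower. Fcgr3, a low-affinity IgG receptor that uses Fcer1g, was at 7.06 and 7.73 TPM, and Fcer1g exceeded it by 2.07 ± 0.04. Trem2, a lipid-sensing receptor that uses Tyrobp, was at 2.74 and 2.21 TPM, and Tyrobp exceeded it by 3.56 ± 0.29 (both log2 of TPM + 0.1, SD, n = 2). The intervals did not overlap in either library for these receptor and adaptor pairs. Of the Fcgr3 windows of 100 nt, 2.54% also occur in Fcgr2b.

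The chains of C1q, which opens the classical complement pathway and tags dying cells, are encoded side by side on the minus strand of chromosome 4, with C1qb at chr4:136880129-136886187, C1qc at chr4:136889804-136893065 and C1qa at chr4:136895917-136898803 (GRCm38). C1qb was read at 30.2 and 29.2 TPM in replicates 1 and 2. C1qa stood at 13.8 and 15.2 TPM, and C1qc at 13.5 and 12.2 TPM. C1qb exceeded C1qc by 1.21 ± 0.07 and C1qa by 1.03 ± 0.14 (log2 of TPM + 0.1, SD, n = 2), with intervals apart in both libraries. C1qa and C1qc could not be told apart by their intervals. The order of the chains was thus C1qb above the other two in each library, although the C1q protein holds its chains in equal number.

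Among surface receptors, the chemokine receptor Cx3cr1 was at 6.68 and 7.34 TPM in replicates 1 and 2, from a pair of coding transcripts led by Cx3cr1-202. The mannose receptor Mrc1, a marker of resident tissue macrophages, was at 5.63 and 6.50 TPM. Aif1, the cytoplasmic protein IBA1 used to stain microglia and macrophages and grouped here with the surface markers, was at 6.15 and 7.61 TPM. A retained-intron transcript supplied 33.6% and 49.8% of the Aif1 value. Adgre1, the classical surface antigen of mouse macrophages, was at 3.29 and 4.90 TPM in the libraries. The Adgre1 intervals did not overlap between the libraries, but its scaled count ratio of 1.39 (interval 1.15 to 1.67) stayed short of 1.5-fold. Cd14, the lipopolysaccharide co-receptor, was at 2.15 and 2.44 TPM. P2ry12, the ADP receptor best known from microglia and platelets, was at 1.08 and 1.23 TPM, and Cx3cr1 exceeded it by 2.50 ± 0.03 (log2 of TPM + 0.1, SD, n = 2).

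Markers of haemoglobin-scavenging and of liver or peritoneal macrophages were low. Cd163, the haptoglobin-haemoglobin receptor, had 3 counts in replicate 1 and 8 in replicate 2, or 0.03 and 0.12 TPM, a scaled ratio of 3.26 with a counting interval from 0.78 to 19.1. Timd4, a phosphatidylserine receptor of long-lived resident macrophages, had 0 counts in replicate 1, which leaves room for at most 0.105 CPM (counts scaled by library total), and 8 counts in replicate 2. Taking 3 counts per library as the floor and the 8 counts as exact, Timd4 was at least 3.26-fold higher in replicate 2; with the counting error of both libraries, the lower limit of its ratio was 2.09. Mrc1 exceeded Cd163 by 5.18 ± 0.39 and Timd4 by 5.06 ± 1.10 (log2 of TPM + 0.1, SD, n = 2), and the intervals were apart in both libraries. With Cd163 and Timd4 near 0 the size of these gaps is set by the pseudocount, and with 1 TPM they were 2.71 and 2.66. Of the other liver and erythrophagocytic macrophage genes, 2 of 7 were detected, the haem oxygenase Hmox1 at 17.4 and 21.8 TPM and the iron exporter Slc40a1 at 10.8 and 14.4 TPM, both of which are also made outside macrophages. Cd5l, the next in level, was at 0.10 and 0.61 TPM.

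Stab1, a scavenger receptor of macrophages and of sinusoidal and lymphatic endothelium, was listed at 27.1 and 22.6 TPM, far above Mrc1 at gene level. Its full-length coding transcript of 7999 nt, Stab1-201, gave only 3.43 and 3.49 TPM. By mean over the libraries, the highest other values came from Stab1-202, a noncoding transcript of 242 nt at 6.0 and 2.60 TPM, from the retained-intron Stab1-204 at 5.78 and 5.55 TPM, and from the short Stab1-207 of 413 nt at 4.27 and 1.55 TPM. Transcripts annotated as protein-coding carried 30.7% and 24.0% of the Stab1 value. In expected counts, Stab1-201 held 572 of 1086 in replicate 1 and 444 of 895 in replicate 2. Mrc1-201, the only coding transcript of Mrc1, was at 5.26 and 6.50 TPM, above Stab1-201 in both libraries. The order of Stab1 and Mrc1 therefore depends on whether short and intron-holding transcripts are counted. Stab1 is also made by endothelium, and all 8 of 8 endothelial genes, with Egfl7, Sox18 and Pecam1 highest, and 4 of 5 lymphatic genes, with Pdpn highest, were detected; their part in the Stab1 level was not tested.

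**Figure D2:**
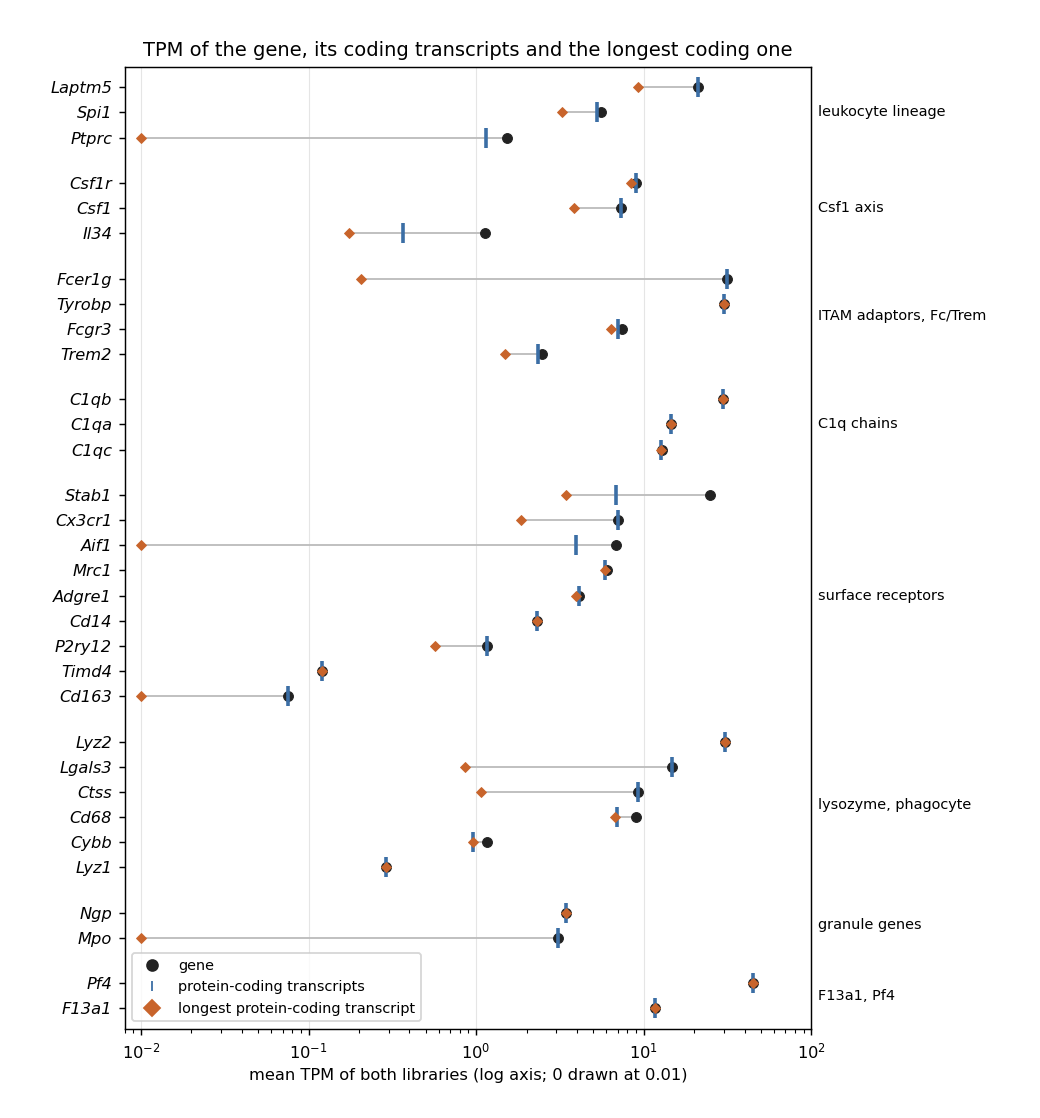
Mean TPM over both libraries (log axis, 0 drawn at 0.01) for each gene, for the sum of its protein-coding transcripts and for its longest protein-coding transcript. The points coincide for genes with 1 transcript such as Pf4, Lyz2 and Tyrobp, and stand far apart for Stab1, at 24.8 TPM for the gene.

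Transcript use was compared between the libraries for the 15 genes with more than 1 annotated transcript and at least 5 TPM in both. In 14 of 15 the same transcript led in both libraries, beside 91.7% of the 7955 genes so tested. The exception was Stab1, led by Stab1-202 in replicate 1 and Stab1-204 in replicate 2. Below 5 TPM, the leading transcript also differed between the libraries for Il34, as described above, for P2ry12, from P2ry12-201 to P2ry12-202 on 50 and 41 counts for the gene, and for Trem2, from Trem2-201 at 2.05 and 0.94 TPM to Trem2-202 at 0.65 and 1.04 TPM, on 48 to 60 counts for the whole gene.

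The mouse has a pair of neighbouring lysozyme genes on the minus strand of chromosome 10, Lyz2 at chr10:117277331-117282321, expressed by macrophages and granulocytes, and Lyz1 at chr10:117287797-117292868, known from Paneth cells of the gut. Lyz2 was read at 28.4 TPM in replicate 1 and 32.6 TPM in replicate 2, from 700 and 614 counts. Lyz1 was at 0.04 and 0.54 TPM, from 1.02 and 10.2 expected counts, a scaled ratio of 12.2 with a counting interval from 1.74 to 531. Lyz2 exceeded Lyz1 by 6.67 ± 1.41 (log2 of TPM + 0.1, SD, n = 2), and the gap fell to 4.63 with a pseudocount of 1 TPM, since Lyz1 is near 0. Of their 100-nt windows, 1.97% for Lyz2 and 2.06% for Lyz1 occur in both genes, so few reads could be exchanged between them, but the few Lyz1 counts could include some.

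A stretch of the RefSeq promoters of the lysozyme genes, from position -160 to -61 before each start, is shown because these near copies differed most in level among the compared pairs; it lies at chr10:117282333-117282432 (Lyz2) and chr10:117292929-117293028 (Lyz1), both on the minus strand of GRCm38.p6. In a global alignment 82 of 100 bases were identical. Capitals mark bases that differ or face a gap.
Lyz2: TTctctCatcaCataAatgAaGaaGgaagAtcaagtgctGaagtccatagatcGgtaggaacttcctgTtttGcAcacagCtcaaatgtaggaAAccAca
Lyz1: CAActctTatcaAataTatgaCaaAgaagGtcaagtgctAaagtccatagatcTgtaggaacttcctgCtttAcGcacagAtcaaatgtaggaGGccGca

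The other lysosomal and phagocyte genes were present at intermediate levels. Cd68, a lysosomal glycoprotein of phagocytes, was at 9.11 and 8.94 TPM in replicates 1 and 2, of which the coding transcripts gave 7.05 and 6.77 TPM. Ctss, the protease cathepsin S, was at 8.85 and 9.67 TPM, and its intervals overlapped those of Cd68. Lgals3, the lectin galectin 3, was at 16.0 and 13.7 TPM and lay above Cd68 by 0.71 ± 0.14 (log2 of TPM + 0.1, SD, n = 2), with intervals apart in both libraries. Cd68 lay above Adgre1 by 1.15 ± 0.42. In expected counts that are not divided by length the order of Cd68 and Adgre1 turned round, to -0.50 on the log2 scale, since the Adgre1 transcript is the longer. Cybb, the membrane subunit of the phagocyte oxidase, was the lowest of these apart from Lyz1, at 0.61 TPM in replicate 1 and 1.70 TPM in replicate 2.

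F13a1, the A chain of coagulation factor XIII, and Pf4, the chemokine platelet factor 4, are made by megakaryocytes and by some resident macrophages. F13a1 was at 10.8 and 12.6 TPM in replicates 1 and 2. Pf4, at chr5:90772435-90773383 on the plus strand, was at 46.2 and 43.7 TPM, the highest of the 32 in both libraries, and exceeded F13a1 by 1.94 ± 0.21 (log2 of TPM + 0.1, SD, n = 2). Pf4 is a short gene: without division by length its counts were below those of F13a1, by -1.01 on the log2 scale. Among 10 other megakaryocyte and platelet genes, 5 were detected, led by the chemokine Ppbp at 5.98 and 7.71 TPM and the integrins Itga2b at 5.05 and 4.79 TPM and Itgb3 at 2.92 and 3.27 TPM. How much of the Pf4 and F13a1 signal came from megakaryocytes or platelets was not tested.

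Over all 20 pairs of members compared, the intervals were apart in both libraries, with the same gene higher, in 15. In 13 of these 15 the mean log2 ratio also exceeded 3 times its SD over the libraries. The exceptions were Csf1 with Il34 and Cd68 with Adgre1.

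Most of the 32 genes were at nearly the same level in both libraries. Among the 29 genes with a mean count of 10 or more, 4 differed by more than 1.5-fold after scaling, beside 12.8% of the 17707 gene rows so counted. All 4 were higher in replicate 2, a direction held by 8.76% of the gene rows, and 0 were lower, beside 3.99%. The 32 are all protein-coding, and such genes passed less often than gene rows at large. Of 15010 protein-coding genes so counted, 858 were higher in replicate 2 and 473 were lower. The median log2 ratio of replicate 2 over replicate 1 was 0.03 for the 29 members, and over all counted gene rows it was -0.02. With 1 library on each side these ratios compare the libraries and have no replicate check.

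**Figure D3:**
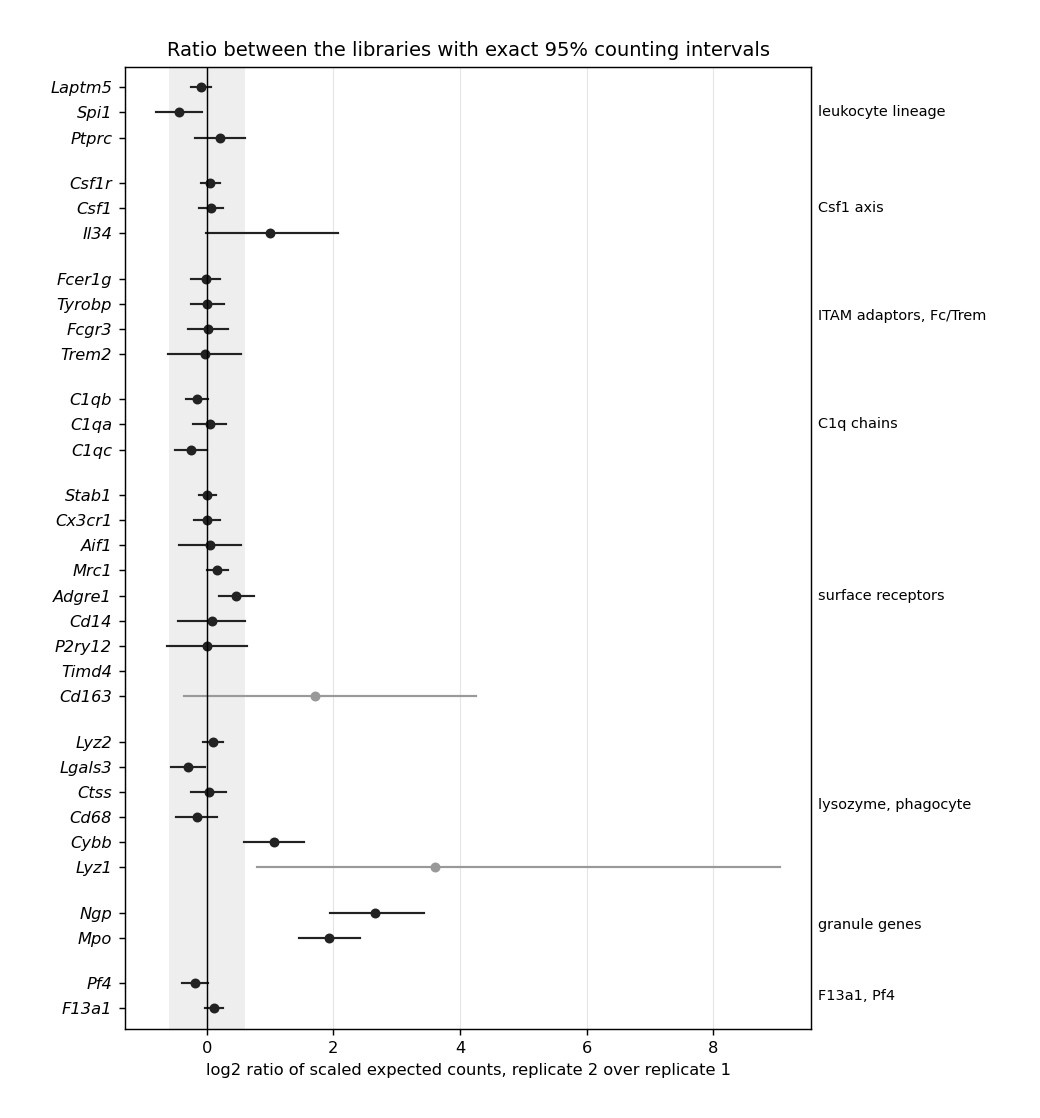
Log2 ratio of scaled expected counts, replicate 2 over replicate 1, without a prior count, with its exact 95% counting interval; grey points have a mean count below 10, Timd4 has no finite ratio, and the shaded band is 1.5-fold. Ngp and Mpo lie farthest to the right of the band among the black points, with Cybb and Il34 next. The intervals of Ngp, Mpo, Cybb, Adgre1, Lyz1 and Timd4 (not drawn) lie above equality, and those of Spi1 and Lgals3 below it. They cover counting error only, and no share over all genes is given, so they do not set these genes apart from others.

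The largest difference was in Ngp, neutrophilic granule protein, which had 20 counts in replicate 1 and 103 in replicate 2, or 0.89 and 6.02 TPM. Its scaled ratio was 6.30, with an interval from 3.88 to 10.7. Mpo, the granule enzyme myeloperoxidase of granulocyte precursors, had 50 and 156 counts, or 1.45 and 4.74 TPM, a ratio of 3.82 (interval 2.76 to 5.36). Cybb, which neutrophils as well as macrophages express, had 60 and 102 counts and a ratio of 2.08 (interval 1.498 to 2.91). Il34 had a ratio of 2.01, but its interval from 0.99 to 4.23 included equality. Mpo and Ngp were thus the only genes of the 32 whose interval lay wholly above 1.5-fold among those counted. Of the Mpo windows of 100 nt, 4.79% also occur in the antisense gene Gm11505. The gap between Lyz2 and Mpo was 4.20 on the log2 scale in replicate 1 and 2.76 in replicate 2.

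Most other granulocyte genes with enough counts were higher in the same library. Of 12 neutrophil granule and granulocyte genes outside the 32, 3 were detected in both libraries and 7 in replicate 2. The calcium-binding proteins S100a8 and S100a9, abundant in neutrophils, were at 5.65 and 15.0 TPM and at 2.98 and 10.3 TPM in replicates 1 and 2. The serine protease Prtn3 was at 6.41 and 5.65 TPM. Of the 8 with enough counts, 6 were more than 1.5-fold higher in replicate 2 and 0 were more than 1.5-fold lower. Prtn3 had a ratio of 0.83 (interval 0.60 to 1.13). Csf3r, a granulocyte gene named after its values were seen, had a ratio of 0.69 (interval 0.32 to 1.42). The summed counts of the list were 2.05 times as high in replicate 2 (interval 1.73 to 2.45). The hepatocyte and erythroid genes given above were higher in that library too. At this stage the fetal liver is the main site of blood formation, and the part of liver or blood RNA in the Mpo, Ngp and Cybb values was not tested.

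Apart from Mpo and Ngp, the summed counts of the groups of members moved little between the libraries. Stab1, Csf1, Pf4 and F13a1, described above as made by other cells too, are in these sums. The lineage genes Ptprc, Spi1 and Laptm5 had a summed ratio of 0.93 (interval 0.85 to 1.02), the ITAM adaptors and their receptors 1.00 (interval 0.91 to 1.10), the C1q chains 0.92 (interval 0.84 to 0.999), and F13a1 with Pf4 1.01 (interval 0.93 to 1.10). The surface receptors had 1.08 (interval 1.02 to 1.14) and the lysozyme and phagocyte genes 1.04 (interval 0.96 to 1.12). Csf1r with its ligands had 1.05 (interval 0.97 to 1.14). Such sums follow the genes with the most counts, and single genes within them moved more. Adgre1 had a ratio of 1.39 (interval 1.15 to 1.67) and Cybb 2.08 (interval 1.498 to 2.91). Spi1, at 172 and 104 counts, had a ratio of 0.74 (interval 0.57 to 0.95) although its TPM was nearly equal; Spi1-201, its longest coding transcript, was at 3.80 and 2.71 TPM. Lgals3 had a ratio of 0.82 (interval 0.68 to 0.98). On few counts, Lyz1 had a ratio of 12.2 (interval 1.74 to 531). Timd4, with 0 counts in replicate 1, had a lower limit of 2.09.

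**Figure D4:**
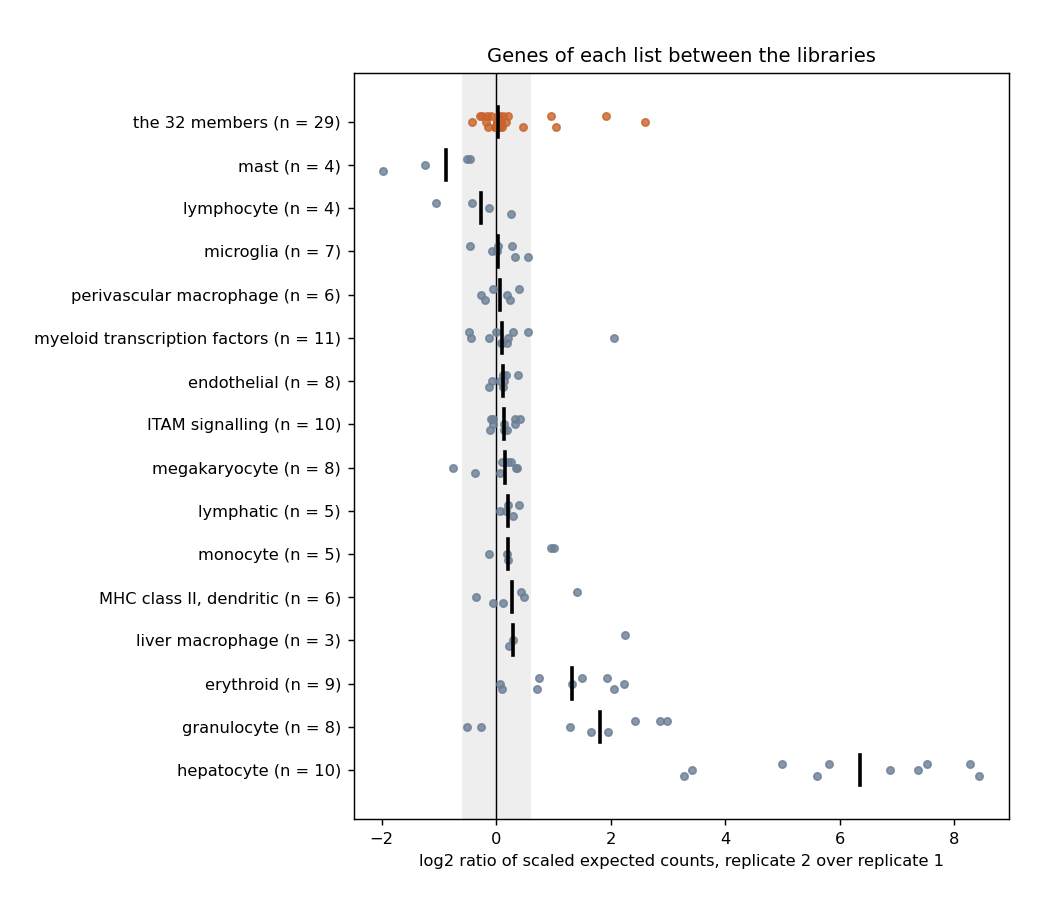
Log2 ratio of scaled expected counts, replicate 2 over replicate 1, with prior count 1, for the genes of each list with a mean count of 10 or more; bars are medians and the band is 1.5-fold. The 29 counted members centre on 0.03. The medians of the granulocyte, erythroid and hepatocyte genes lie to the right, at 1.81, 1.32 and 6.35, and that of the mast cell genes lies to the left, at -0.88.

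Other genes of the macrophage programme were read from lists outside the 32. Of 12 myeloid transcription factors other than Spi1, 9 were detected, among them Klf4 at 17.0 and 16.3 TPM and Runx1, which blood and skeletal precursors share, at 13.9 and 19.0 TPM. Of 11 kinases, adaptors and enzymes downstream of Csf1r and the ITAM adaptors, 9 were detected, led by the phosphatase Ptpn6 at 6.95 and 10.6 TPM and the kinase Lyn at 7.90 and 8.80 TPM. In this list 0 of the 10 with enough counts passed 1.5-fold between the libraries. In the list of factors 1 of 11 did: Cebpb, a factor of granulocytes, macrophages and liver named here after its values were seen, was at 1.71 TPM in replicate 1 and 7.77 TPM in replicate 2.

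Of 7 genes used as microglia markers, 5 were detected, and of 7 markers of resident perivascular macrophages, 6 were. The highest of the first, Tmem119 at 106 and 84.0 TPM and Olfml3 at 42.7 and 46.7 TPM, stood far above P2ry12 and are also expressed by mesenchymal cells. The same holds for Igf1 at 55.6 and 54.0 TPM and Gas6 at 13.0 and 11.7 TPM in the second list, in which the carbonyl reductase Cbr2 was at 20.7 and 25.1 TPM. Macrophage and mesenchymal RNA of these genes cannot be told apart in these libraries. Of 6 monocyte genes 3 were detected in both libraries and 5 in replicate 2, with Plac8 at 2.42 and 5.09 TPM, the chemokine receptor Ccr2 at 1.52 and 1.39 TPM and Fcgr1 at 1.12 and 1.37 TPM.

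Genes of other leukocytes were detected in part. Of 9 MHC class II and dendritic cell genes 3 were detected, H2-Ab1 at 3.70 and 4.29 TPM, the invariant chain Cd74 at 3.07 and 4.44 TPM and Zbtb46 at 2.87 and 2.77 TPM. Of 11 lymphocyte genes 2 were, Lck at 7.14 and 5.73 TPM and Cd79b at 1.55 and 1.42 TPM. The median of the genes' mean TPM was 0.07 in the lymphocyte list and 0.705 in the MHC class II and dendritic cell list. Which cells made the detected genes of these lists was not tested. Of 7 mast cell and basophil genes 3 were detected in both libraries, and they went the other way from most of the granulocyte genes. The mast cell proteases Cma1 and Cpa3 were at 21.2 and 9.54 TPM and at 19.9 and 14.9 TPM in replicates 1 and 2, and Hdc, which makes histamine, was at 4.40 and 3.67 TPM. The summed counts of the mast cell list in replicate 2 were 0.58 times those in replicate 1 (interval 0.53 to 0.64). Fcer1g, which mast cells express too, had a ratio of 0.99 (interval 0.85 to 1.15) between the same libraries.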

How the data were processed

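Total RNA-seq was measured in 2 libraries of mouse facial prominence. Per the labels, the assembly is mm10; the deposited tables use GENCODE M4 identifiers, and the aligner, quantifier and strand setting are not given in the sources used here. Per the file headers, the authors deposited for each gene and transcript an expected count, TPM, FPKM, and the lower and upper credibility bounds of TPM, treated here as a signal value; no source used here states their level. TPM sums include spike-ins, which took 13.4% and 9.68% of TPM in replicates 1 and 2. Gene names and positions were taken from GENCODE M21 (GRCm38) (42462 gene rows matched, 884 did not).

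Genes were called detected at 1 TPM in both libraries. Libraries were compared by log2 ratios of expected counts, rounded to whole numbers and scaled by TMM on gene rows in edgeR 4.0.16. The prior count was 1 and the mean count 10 or more, with no test, since there is 1 group. Exact Clopper-Pearson 95% intervals (scipy 1.17.1) on rounded counts cover counting error only. The scaling code was run on simulated counts with few genes changed, all upward. That run does not test scaling on libraries as unlike as these. DESeq2 1.42.0 gave alternative size factors. The members and lists were chosen with earlier results of these data known. All 32 members, the pairs and at most the 3 highest genes of each other list by mean TPM were named. Cebpb, Csf3r and the facial genes Msx1 and Prrx1 were named after their values were seen. A few list genes are not reported here.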

Additional observations from a re-analysis of the deposited data

How the results depend on the processing

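No paired analysis was possible because both libraries belong to 1 group; for the same reason leaving out a library left no ratio between them. The number of members detected was 26 and ranged from 23 at 2 TPM to 29 without replicate 1. It was 28 at 0.5 TPM, 28 by posterior mean TPM and 25 by FPKM. It was 26 from protein-coding transcripts alone, an alternative chosen after seeing the data. The median TPM moved from 7.19 to 8.12 when TPM was rescaled to gene rows and to 9.04 over the detected members. Members past 1.5-fold numbered 4 under every scaling tried, 7 with no minimum count and 3 at a mean count of 50. The same leading transcript was found in 5 of 6 members at 10 TPM. Genes detected, leaving out each library in turn, ranged from 3 to 5 for monocytes, from 3 to 7 for granulocytes and from 2 to 10 for hepatocytes; at 0.5 TPM, 5 genes each were detected in the MHC class II and hepatocyte lists. Without division by length 12 of the 15 pairs kept their order: Cd68 over Adgre1 reversed to -0.50 and Pf4 over F13a1 to -1.01, and Spi1 over Ptprc shrank from 1.81 to 0.32, with 104 counts for each in replicate 2. Counts under about 20, as for Cd163, Timd4, Lyz1 and Il34, limit what these libraries can resolve.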
